A study of Mus musculus with 288 samples.

Results

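9 genes that carry sodium and water across the renal tubule, or control that carriage, were followed in 12 groups of mouse libraries. They are the 3 subunit genes of the epithelial sodium channel (Scnn1a, Scnn1b and Scnn1g), the 2 sodium chloride cotransporters that loop and thiazide diuretics block (Slc12a1 and Slc12a3), the sodium-hydrogen exchanger Slc9a3, the water channels Aqp1 and Aqp2, and the vasopressin receptor Avpr2. They were chosen by name, and all 9 are among the 35904 genes of the tables. Levels are in TPM, transcripts per length scaled to a fixed total per library. In the kidney all 9 reached the floor used for tests, a tissue mean of 1 TPM. Only 4 did so in the lung, 2 each in liver and cerebellum, and 1 (Aqp1) each in muscle and heart.

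Most filtered sodium is taken back in the proximal tubule, where Slc9a3 exchanges it for protons and Aqp1 lets water follow. The thick ascending limb takes up more through Slc12a1, and the distal convoluted tubule through Slc12a3. In the principal cells of the collecting duct the epithelial sodium channel sets the final uptake under aldosterone, and vasopressin, through Avpr2 and cyclic AMP, brings Aqp2 to the cell surface. The same sodium channel clears fluid from the air spaces of the lung, and Aqp1 is also a channel of endothelial cells outside the kidney.

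All mice were male wild-type C57BL/6J, 8 weeks old. For 7 days they breathed room air (normoxia) or met cycles of low oxygen during the light phase (intermittent hypoxia, IH), and all were then held in constant darkness with room air, so every tissue was collected without concurrent hypoxia. On the 2nd day of darkness the kidney, lung, liver, muscle, heart and cerebellum were taken at 8 time points 3 h apart, from 1:30 to 22:30, with 3 libraries, each of 1 mouse, for a treatment and time. That gives 24 libraries per tissue and treatment and 288 in all. Library totals lay between 989211 and 999188 TPM, and read depth is unknown. The kidney libraries carried the kidney transcripts Kap (mean 46286 TPM in normoxia), Umod (1789 TPM) and Slc34a1 (1821 TPM). In bulk tissue, fewer cells of a type and less RNA per cell cannot be told apart. The lowest median correlation of a library with the others of its tissue was 0.944 in the kidney (IH, 19:30, replicate 3), 0.871 in the lung (IH, 1:30, replicate 2), 0.693 in the liver (IH, 13:30, replicate 2), 0.822 in the heart (normoxia, 7:30, replicate 3) and 0.767 in the cerebellum (IH, 1:30, replicate 3).

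The bases just upstream of 5 of the genes are shown because the results below turn on them. Scnn1b and Scnn1g had the lower levels in the lung, Avpr2 was the rhythmic gene of the kidney, and Aqp2 and Slc9a3 were nearest to it in strength of rhythm. Each is the 200 bases before the start site in RefSeq (GRCm38.p6, plus strand). Capitals mark matches to the motifs searched on both strands.
Scnn1b, chr7:121864838-121865037: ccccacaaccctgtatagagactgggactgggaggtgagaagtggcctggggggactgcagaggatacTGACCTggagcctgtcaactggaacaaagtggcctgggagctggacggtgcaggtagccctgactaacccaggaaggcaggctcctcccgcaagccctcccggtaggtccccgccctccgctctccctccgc
Scnn1g, chr7:121734279-121734478: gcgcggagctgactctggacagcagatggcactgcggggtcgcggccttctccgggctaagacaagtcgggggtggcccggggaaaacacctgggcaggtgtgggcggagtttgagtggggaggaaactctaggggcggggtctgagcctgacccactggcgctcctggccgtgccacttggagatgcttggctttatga
Slc9a3, chr13:74121213-74121412: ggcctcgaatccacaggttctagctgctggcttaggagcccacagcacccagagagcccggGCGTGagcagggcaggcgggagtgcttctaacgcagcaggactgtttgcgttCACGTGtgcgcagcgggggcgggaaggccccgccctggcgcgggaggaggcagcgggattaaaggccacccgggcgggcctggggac
Aqp2, chr15:99578856-99579055: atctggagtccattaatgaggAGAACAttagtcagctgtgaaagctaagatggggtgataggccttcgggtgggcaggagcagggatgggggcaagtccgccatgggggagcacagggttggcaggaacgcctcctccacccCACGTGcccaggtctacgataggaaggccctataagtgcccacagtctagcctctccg
Avpr2, chrX:73891902-73892101: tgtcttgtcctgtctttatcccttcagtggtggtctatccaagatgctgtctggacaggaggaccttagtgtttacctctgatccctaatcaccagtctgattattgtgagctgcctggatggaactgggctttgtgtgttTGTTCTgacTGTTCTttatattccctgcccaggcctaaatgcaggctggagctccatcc

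Promoter windows of 300 bases, 250 before the start and 50 from it, were found for 8 of the 9 genes. The E-box CACGTG lies 87 bases before the start of Slc9a3 and 58 before that of Aqp2, and in 7.15% of all 32851 mouse promoters of that length. Being its own reverse complement, it also holds ACGTG on both strands. The hypoxia response core (ACGTG or GCGTG) was present in 3 of the 8 windows, those of Slc9a3, Aqp2 and Slc12a1, and in 43.8% of all promoters. The steroid receptor motif AGAACA occurred 2 times in Avpr2 and 1 time in Aqp2, and is held by 19.0% of promoters. The ROR element AGGTCA was in Scnn1b alone (16.3% of promoters). No window of the 8 held the D-box (TTATGTAA or TTATGCAA, 1.66% of promoters) or the cyclic AMP element TGACGTCA (1.79%). The windows of Scnn1g, Slc12a3 and Aqp1 held none of the motifs searched.

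4 of the 9 genes reached 1 TPM in the kidney and in no other tissue (Slc12a1, Slc12a3, Aqp2 and Avpr2), 4 did so in other tissues as well (the 3 Scnn1 genes and Slc9a3), and Aqp1 did so in all 6. TPM is a level per transcript length, so genes can be set side by side. Aqp1 was the most abundant of the 9 in the kidney, with 403 ± 81.1 TPM in normoxia (SD, n = 24), followed by Slc12a1 with 275 ± 45.04, Slc12a3 with 226 ± 82.4 and Aqp2 with 219 ± 52.5 TPM. Slc9a3 had 40.8 ± 7.69 TPM, Scnn1a 26.3 ± 6.26, Avpr2 14.2 ± 3.11, Scnn1b 13.6 ± 2.57 and Scnn1g 12.8 ± 2.43 TPM. The 3 channel subunits were thus unequal in the kidney, with Scnn1a above the other two.

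The order of the tissues was tested between neighbours, in normoxia, with a 2-sided permutation test of mean TPM adjusted over 45 pairs (each pair was picked by its means). Libraries were shuffled as independent, although those of different tissues may come from the same mouse. With 100000 resamples p cannot fall below 1e-05, the smallest they can give, or 2.37e-05 after adjustment, and 29 of the 45 pairs differed at 0.05. The 3 channel subunits were higher in the lung than in the kidney. Scnn1a had 148 ± 42.8 TPM in the lung, 5.64 times its kidney level, Scnn1b 64.6 ± 5.33 TPM (4.74 times) and Scnn1g 58.7 ± 10.4 TPM (4.58 times), each at that smallest adjusted p. Scnn1a also had 7.24 ± 1.66 TPM in the liver, where Scnn1b and Scnn1g were listed at 0 in 8 and 12 of the 24 libraries. Below the kidney, Scnn1b and Scnn1g had means of at most 0.320 and 0.592 TPM, both in the cerebellum.

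Slc12a1, Slc12a3, Aqp2 and Avpr2 were highest in the kidney, and their next tissue in normoxia was the cerebellum (0.213, 0.679 and 0.182 TPM for Slc12a1, Slc12a3 and Avpr2) or the lung (0.596 TPM for Aqp2). The kidney level was 1291 times the next for Slc12a1, 367 times for Aqp2, 333 times for Slc12a3 and 77.7 times for Avpr2. Slc9a3 had its second level in the cerebellum, 3.50 ± 2.26 TPM, and its kidney level was 11.6 times as high. Under these levels most neighbours were not told apart. For Avpr2, for example, no neighbouring pair below the kidney differed (adjusted p between 0.29 and 0.679, permutation test).

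Aqp1 was present in every tissue. The lung held 504 ± 110 TPM, the kidney 403 ± 81.1, muscle 362 ± 98.4, heart 202 ± 61.8, liver 41.0 ± 16.1 and cerebellum 18.7 ± 14.5 TPM. Lung and kidney differed (adjusted p = 0.00166, permutation test), and kidney and muscle were not told apart (adjusted p = 0.152).

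**Figure D1:**
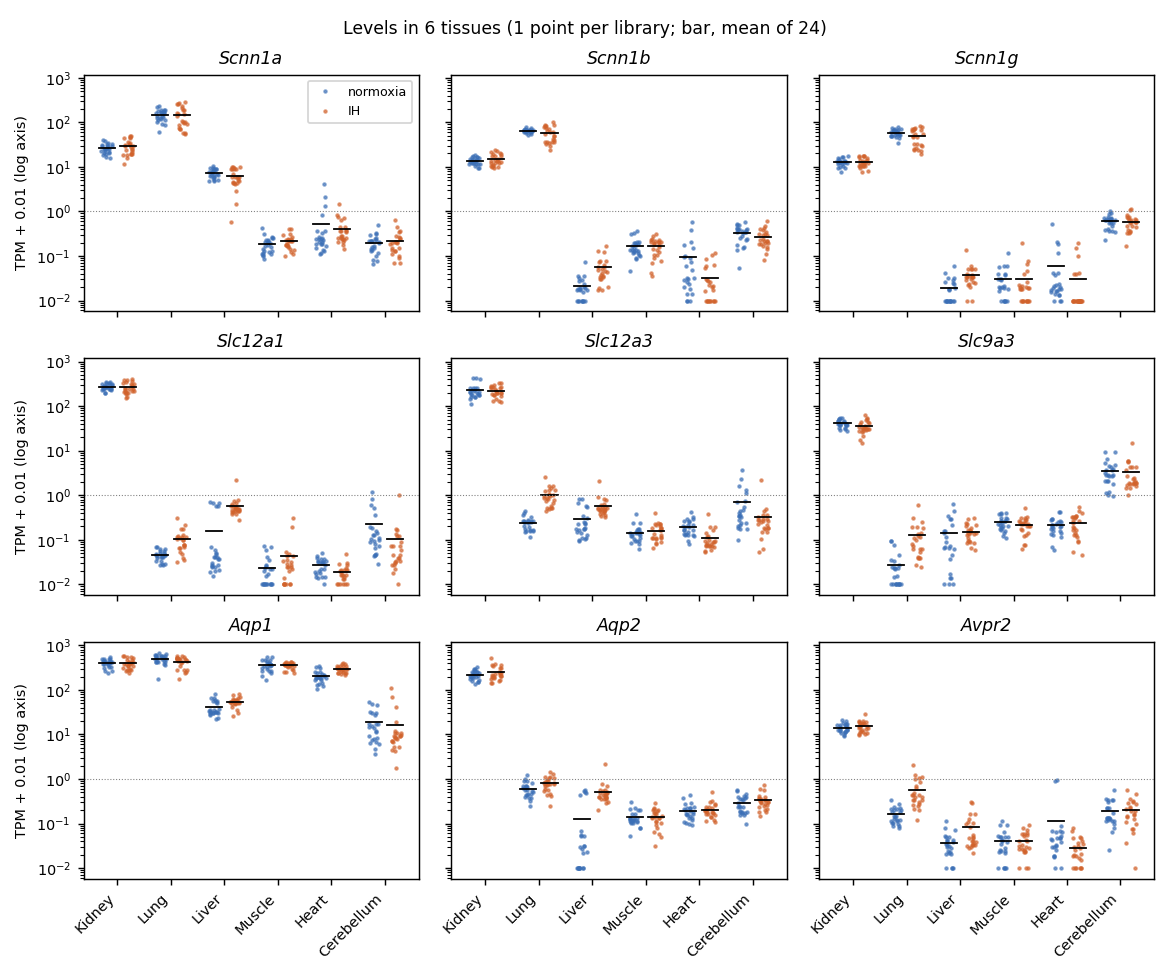
TPM + 0.01 (log axis) of each gene in 6 tissues, 1 point per library, blue for normoxia and orange for IH, with the mean of 24 as a bar and a dotted line at 1 TPM. Slc12a1, Slc12a3, Aqp2 and Avpr2 lie above the line in the kidney and have every other mean below it, the Scnn1 genes are higher in the lung than in the kidney, and Aqp1 is above the line in every tissue.

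In the kidney, none of the 9 genes passed the test for a change of mean level after IH as fitted here, and 4 of them (Slc9a3, Scnn1a, Scnn1b and Aqp2) passed the adjusted p under some other setting, without a 1.5-fold change. Levels were scaled between libraries by the median of ratios, taken as log2 with 0.5 TPM added, and compared over 24 against 24 libraries with limma. None of the 9 reached an adjusted p of 0.05, against 19.8% of the 12902 genes tested, and none passed with a 1.5-fold change, against 0.783%. At an unadjusted p of 0.05, 1 of the 9 passed, Slc9a3. The median change of the 9 was 0.03 on the log2 scale, beside -0.01 over all genes.

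Slc9a3, the proximal tubule exchanger, had the largest difference. Its scaled level ran from 28.9 to 47.6 TPM in normoxia (median 38.8) and from 17.7 to 52.0 TPM after IH (median 33.3). The groups overlapped, with the lowest libraries after IH. The log2 change was -0.22 (SE 0.08, limma adjusted p = 0.0536), with the mean lower at 7 of 8 time points. It passed with a term for time point (0.0354), with the replicate block (0.0439) and without replicate 3 (-0.30, 0.011). The change was smaller and did not pass without replicate 2 (-0.09, limma adjusted p = 0.567) or with genes detected as a term (-0.14, 0.236). Nor did it pass without replicate 1 (-0.28, 0.0937) or with TPM as deposited (-0.26, 0.116). Within replicate numbers 1, 2 and 3, which the labels do not call batches, it was -0.11, -0.49 and -0.06.

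Among the water channels, the scaled level of Aqp2 ran from 133 to 292 TPM in normoxia (median 220.04) and from 142 to 608 TPM after IH (median 217). The log2 change was 0.19 (SE 0.11, limma adjusted p = 0.238). A few libraries after IH were high, and the medians were close. With genes detected as a covariate, a number with a median of 21594.0 in normoxia and 22108.0 after IH, the change of Aqp2 was 0.31 and passed (limma adjusted p = 0.0424). Aqp1 changed by -0.01 (SE 0.07, limma adjusted p = 0.969).

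The sodium channel subunits changed by 0.13 for Scnn1a (SE 0.11), 0.15 for Scnn1b (SE 0.08) and 0.03 for Scnn1g (SE 0.07), with limma adjusted p between 0.162 and 0.841. For Scnn1a the change within replicate numbers had both signs, -0.36 in replicate 2 and 0.59 in replicate 3. Without replicate 2 it was 0.38 for Scnn1a and 0.31 for Scnn1b, at limma adjusted p of 0.00979 and 0.00969. With genes detected as a term it was 0.29 for Scnn1a and 0.30 for Scnn1b (0.0223 and 0.000676). The cotransporters Slc12a1 and Slc12a3 changed by -0.04 (SE 0.07) and 0.03 (SE 0.09), and Avpr2 by 0.14 (SE 0.09, limma adjusted p = 0.303).

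**Figure D2:**
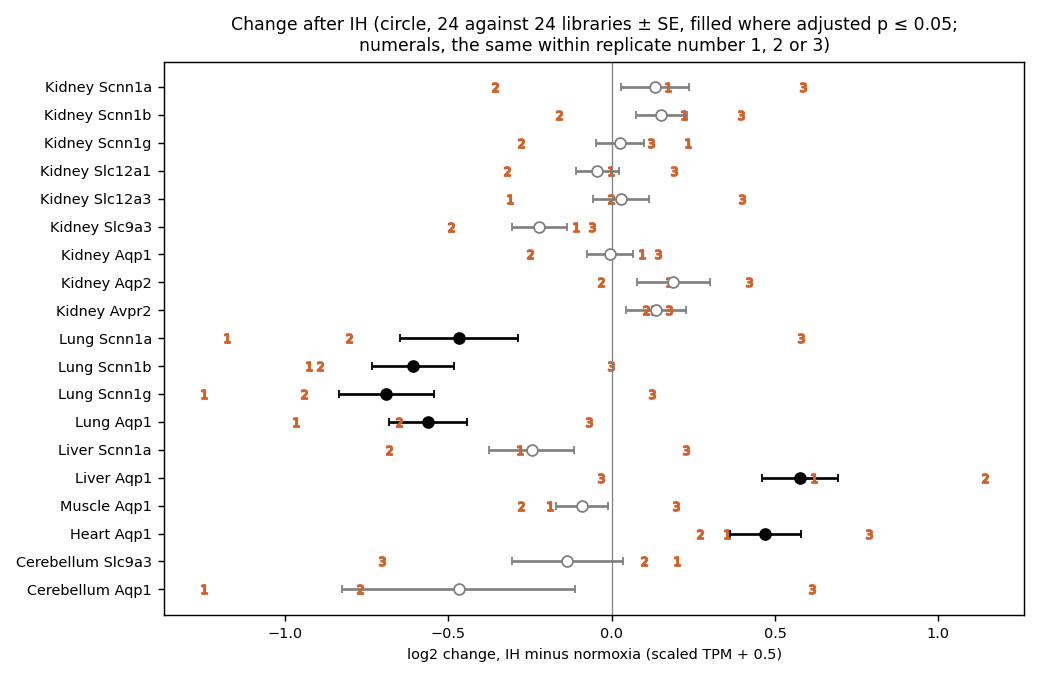
Log2 change from normoxia to IH (horizontal axis) of each gene in the tissues where its mean is at least 1 TPM, as a circle with its SE, filled at an adjusted p of 0.05, with numerals for the change within replicate number 1, 2 or 3. No kidney circle is filled, the 4 lung circles are filled below 0 with numeral 3 to the right of 1 and 2, and Aqp1 is filled above 0 in the liver and the heart.

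Avpr2 was the member with a daily rhythm in the kidney. In normoxia its mean of TPM as deposited was lowest at 7:30, at 10.8 ± 1.18 TPM (SD, n = 3), and highest at 16:30, 18.3 ± 2.26 TPM. After IH it was lowest at 7:30, 11.5 ± 1.33 TPM, and highest at 19:30, 20.7 ± 7.11 TPM. The high mean at 19:30 includes the highest library, 28.8 TPM, beside 18.0 and 15.4 TPM in the other two. A 24-h cosine fitted to log2 levels had an amplitude of 0.31 (SE 0.06) with a peak at 18.6 h in normoxia (limma adjusted p = 0.0023) and 0.38 (SE 0.06) with a peak at 20.4 h after IH (limma adjusted p = 0.000105). Peak over trough was 1.54-fold and 1.69-fold.

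Of the 9 genes, 1 was rhythmic in each treatment, against 11.2% of the genes tested in normoxia and 10% after IH. The rhythm of Avpr2 was not called different between the treatments (p = 0.145 for the moderated F test of limma, adjusted p = 0.981). No rhythm was called different for any of the 9 or for any gene of a tissue (0% in each), with 328 kidney genes at an unadjusted p of 0.05 and none of them a member. In the normoxic kidney the rhythm of Avpr2 was lost without replicate 2 (adjusted p = 0.0696). After IH it remained without the 19:30 library of replicate 3 (adjusted p = 0.000289). For scale, the clock genes Arntl and Dbp had amplitudes of 1.61 and 2.09 in the normoxic kidney, with peaks at 21.9 and 9.16 h.

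Aqp2 and Slc9a3 came next. The Aqp2 mean of TPM as deposited in normoxia was lowest at 1:30, 163 ± 27.5 TPM, and highest at 16:30, 264 ± 30.9 TPM. At 1:30 the libraries of replicates 2 and 3 held the transcript Gm19220 at 362261 and 280201 TPM. Their scale factors were 0.7155 and 0.7297, and the part of this in the low mean was not tested. The fitted peak of Aqp2, from scaled levels, came before that of Avpr2. Aqp2 had an amplitude of 0.28 (SE 0.10, unadjusted p = 0.038 by limma, adjusted p = 0.153). Slc9a3 peaked at 6.67 h in the fit of scaled levels (amplitude 0.21, SE 0.08, limma adjusted p = 0.130). Its means of TPM as deposited lay between 35.8 ± 4.59 TPM at 16:30 and 51.2 ± 6.63 TPM at 7:30. The scale factors at 7:30 were 1.155, 1.169 and 0.945, so these means are not on the scale of the fit. Both were called in normoxia when each treatment was fitted alone (limma adjusted p = 0.0285 for Aqp2 and 0.000678 for Slc9a3), and neither was called after IH in that fit (0.602 and 0.595). The other 6 genes had amplitudes of at most 0.14 in either treatment in the kidney. In the other tissues no member was rhythmic in normoxia, against 4.09% of lung genes, 5.73% of liver, 5.7% of muscle, 1.57% of heart and 0.00672% of cerebellum genes. None was rhythmic after IH there either, against 8.56%, 7.53%, 12%, 2.28% and 0.0403%.

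**Figure D3:**
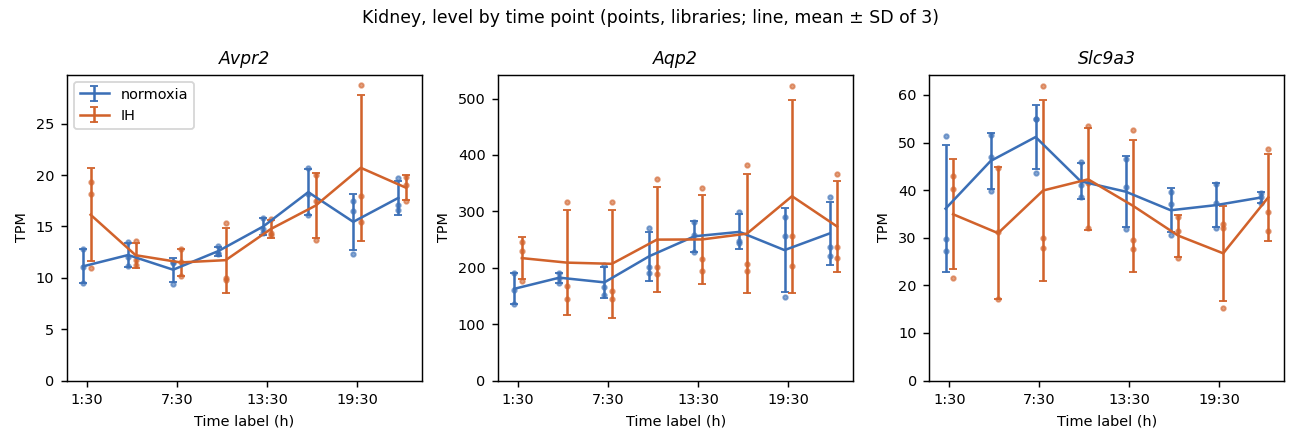
Kidney TPM as deposited of Avpr2, Aqp2 and Slc9a3 (vertical axes from 0) by time label in hours. A point is a library and a line runs through the mean ± SD of 3, blue for normoxia and orange for IH. Avpr2 is lowest at 7:30 in both treatments and high from 16:30 to 22:30, and Aqp2 in normoxia is lowest at 1:30 and highest at 16:30.

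The wider set held 52 other genes of sodium and water transport, of which 48 were tested in the kidney. After IH 9 were higher and 2 lower at an adjusted p of 0.05, with a median of 0.07 on the log2 scale beside -0.01 over all genes. Of all genes, 8.25% were higher and 11.5% lower, and none of the 48 passed with a 1.5-fold change. Wnk4, a kinase that regulates Slc12a3, had the largest change, 0.57 (SE 0.06, limma adjusted p = 1.1e-08). Its scaled level ran from 28.8 to 47.4 TPM in normoxia (median 35.6) and from 43.1 to 96.0 TPM after IH (median 51.1), so the groups overlapped only between 43.1 and 47.4 TPM. It was higher at 8 of 8 time points and in each replicate number (0.47, 0.57 and 0.67). Hsd11b2, the enzyme that shields the mineralocorticoid receptor from glucocorticoids, changed by 0.35 (SE 0.09, limma adjusted p = 0.0027), by 0.02 within replicate 2, and by 0.21 without replicate 3 (0.152).

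The 2 lower genes were Kcnj16, a potassium channel subunit, at -0.23, and Cab39l, a partner of the kinases that act on Slc12a1 and Slc12a3, at -0.17 (limma adjusted p = 0.029 and 0.037). Kcnj16 did not pass without replicate 2 (-0.07), with genes detected as a term (-0.09) or under 2 other settings, and Cab39l did not under 6 settings (adjusted p from 0.058 to 0.156). By role, those higher were 3 of 7 tested regulators of the sodium channel (Hsd11b2, Nedd4l and St14), 1 of 8 in the WNK kinase cascade (Wnk4), 1 of 4 of the sodium pump, 2 of 6 potassium or chloride channel genes and 2 of 4 other cation chloride cotransporters (Slc12a2 and Slc12a4). The genes of this paragraph and the one before it were named after their values were seen. None of the 7 partners of Slc9a3, 5 other aquaporins, 5 genes of vasopressin signalling or 2 urea transporters passed. Among marker genes of kidney cells, 3 of 3 for podocytes, 2 of 4 for principal cells (Hsd11b2 and Gata3) and 1 of 6 for the proximal tubule (Lrp2) were higher. For the thick ascending limb 1 of 4 was higher (Cldn19) and 1 lower (Umod), and none of 3 for the distal convoluted tubule and none of 4 for intercalated cells passed.

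In the kidney 7 of the 48 were rhythmic in normoxia and 6 after IH, beside 11.2% and 10% of all genes. The glucocorticoid-induced Tsc22d3 had an amplitude of 0.80 in normoxia with a peak at 15.1 h (limma adjusted p = 4.01e-09), and Sgk1, a kinase that raises channel activity, 0.49 with a peak at 15.8 h (0.000188). The vasopressin receptor Avpr1a had 0.53 with a peak at 22.1 h (2.12e-07), and the urea transporter Slc14a2 0.32 with a peak at 21.0 h (0.0111). Slc9a3r2, a scaffold of Slc9a3, peaked at 15.8 h, the sodium pump subunit Atp1b1 at 9.67 h and the cotransporter Slc12a2 at 4.33 h (limma adjusted p = 0.000869, 0.0446 and 0.0464). The normoxic rhythms of Atp1b1 and Slc12a2 did not pass when any 1 replicate number was left out (adjusted p from 0.0507 to 0.475 and from 0.0842 to 0.368) or with TPM as deposited (0.182 and 0.647). That of Slc14a2 did not without replicate 1 or 2 (0.0893 and 0.146), and that of Slc9a3r2 did not without replicate 1 (0.0583).

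In the lung the 4 members tested were lower after IH. All 4 passed an adjusted p of 0.05, where 70.4% of the 15426 genes tested did and 41.5% were lower, so the count is read against a tissue in which most genes passed. Scnn1b and Scnn1g also passed with a 1.5-fold change (4.39% of genes were lower by that rule). The scaled level of Scnn1b ran from 60.0 to 105 TPM in normoxia (median 68.8) and from 21.3 to 83.1 TPM after IH (median 49.4). The Scnn1g range was 47.2 to 77.8 TPM (median 65.2) against 17.5 to 71.8 TPM (median 44.0). In both genes the groups overlapped and the lowest libraries were after IH. The log2 change was -0.61 for Scnn1b (SE 0.12, limma adjusted p = 3.08e-05) and -0.69 for Scnn1g (SE 0.14, limma adjusted p = 4.39e-05).

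The scaled level of Scnn1a ran from 82.8 to 253 TPM in normoxia (median 160) and from 41.0 to 257 TPM after IH (median 107). The log2 change was -0.47 (SE 0.18, limma adjusted p = 0.0188). Aqp1 ran from 242 to 680 TPM (median 581) and from 127 to 511 TPM (median 430), a change of -0.56 (SE 0.12, limma adjusted p = 5.73e-05). The means of all 4 were lower at 8 of 8 time points.

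The lower levels came from replicate numbers 1 and 2. The scaled mean of Scnn1b after IH was 38.3 ± 17.8 TPM in replicate 1 and 41.0 ± 14.4 TPM in replicate 2, and 71.2 ± 7.74 TPM in replicate 3 (SD, n = 8 each). In normoxia the same numbers had 68.7 ± 4.63, 73.3 ± 13.6 and 71.2 ± 5.49 TPM. Scnn1g after IH had 31.5 ± 16.0, 34.8 ± 14.3 and 64.3 ± 4.14 TPM, against 69.7 ± 5.26, 62.7 ± 9.73 and 59.2 ± 5.76 TPM. The log2 change within replicate 3 was 0.00 for Scnn1b, 0.12 for Scnn1g, 0.58 for Scnn1a and -0.07 for Aqp1, while within replicates 1 and 2 it lay between -1.25 and -0.65. Without replicate 1 or without replicate 2, none of the 4 passed both criteria, and without replicate 3 all 4 did. Without the IH library at 1:30 of replicate 2, 1 of the 4 passed both, Scnn1g (Scnn1b at -0.58). Of all genes tested, 2056 of 15382 passed both without replicate 1, 1509 of 15278 without replicate 2 and 3441 of 15590 without replicate 3. The count was 2079 of 15426 with all libraries and 1757 of 15328 without that 1 library.

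The size also rested on the scaling, and the direction on a covariate. With TPM as deposited the change was -0.31 for Scnn1b and -0.39 for Scnn1g (limma adjusted p = 0.021 and 0.0152), none of the 4 passed both criteria, and the median of all genes moved from -0.08 to 0.21. Of all 15426 genes, 2966 then passed both criteria, 2908 of them as higher, so few lung genes were called lower. With scaled levels 2079 passed, 1402 of them as higher. More genes were listed above 0 after IH, a median of 24788.5 against 22690.5 in normoxia. The ranges were 23622 to 28284 and 21746 to 25400, so this number went largely with treatment and a fit with both separates them poorly. With that number as a covariate the 4 changes turned positive, to 0.79 for Scnn1a, 0.11 for Scnn1b, 0.39 for Scnn1g and 0.34 for Aqp1, and all but that of Scnn1b passed. Scnn1a then passed with a 1.5-fold change, as higher. The part of this number in the result was not tested.

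Markers of lung cells moved with the 4 genes. All 4 markers of alveolar type 1 cells, 4 of alveolar type 2 cells, 4 of endothelium and 3 of airway cells were lower after IH, and no marker was at 0 throughout. Sums over the lists are in TPM as deposited, whereas the tests used scaled levels. The summed level of the type 2 list ran from 33254 to 49203 TPM in normoxia and from 14297 to 46644 TPM after IH. The range of the type 1 list was 2186 to 4414 TPM against 1404 to 4042 TPM, of the endothelial list 339 to 1129 TPM against 382 to 883 TPM, and of the airway list 101647 to 236315 TPM against 21871 to 161569 TPM. Across the 48 lung libraries, with treatment means removed, Pearson's r of Scnn1g was 0.93 with the type 2 list, 0.91 with the type 1 list and 0.90 with Scnn1b. Aqp1 had 0.90 with the endothelial list, as did Scnn1g, and 0.85 and 0.84 with the type 2 and type 1 lists. The lists thus did not set these genes apart by cell type. These points share the libraries and their scaling, and the part of the markers in the result was not tested.

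**Figure D4:**
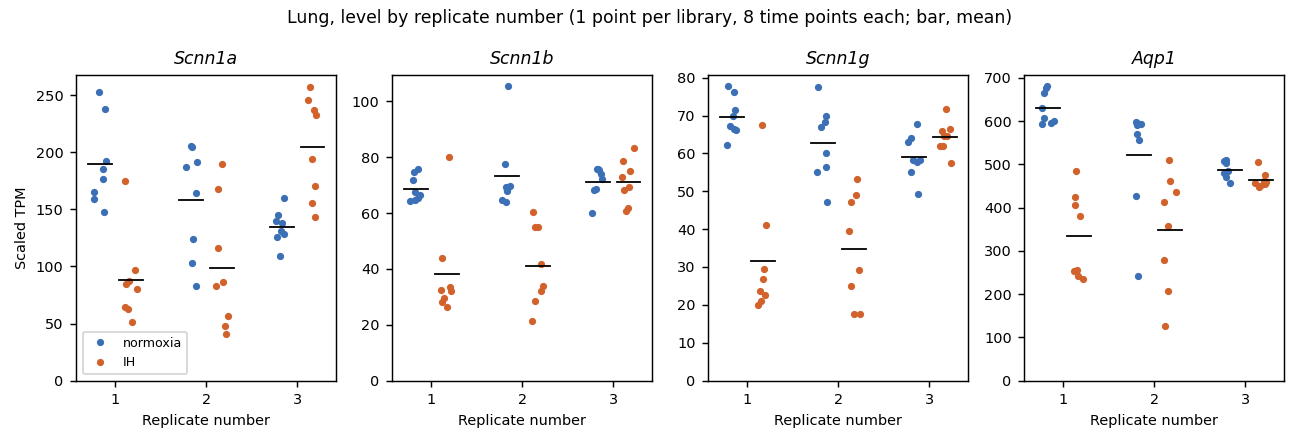
Scaled TPM (vertical axes from 0) of Scnn1a, Scnn1b, Scnn1g and Aqp1 in the lung by replicate number, 1 point for each of 8 time points, blue for normoxia and orange for IH, with the mean as a bar. The orange bars are below the blue ones in replicates 1 and 2, and in replicate 3 they lie close to the blue for Scnn1b, Scnn1g and Aqp1 and above it for Scnn1a.

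Of the 52 other transport genes, 42 were tested in the lung, where 8 were higher and 23 lower (28.9% and 41.5% of all genes), with a median of -0.25 beside -0.08 over all genes. 3 passed with a 1.5-fold change, all lower. By that rule 2079 of the 15426 lung genes tested passed, and 4.39% were lower. Among the 3, Aqp5, the water channel of alveolar type 1 cells, changed by -0.79 (SE 0.12), and the scaffold Slc9a3r1 by -0.71 (SE 0.12). Within replicate 3 these were -0.42 and -0.18. With genes detected as a covariate they became 0.043 and 0.069, neither of which passed.

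Aqp1 was higher after IH in the liver and the heart. In the heart its scaled level ran from 80.3 to 337 TPM in normoxia (median 209) and from 200.7 to 395 TPM after IH (median 285). The groups overlapped, and the lowest library after IH lay just under the normoxic median. The log2 change was 0.47 (SE 0.11, limma adjusted p = 0.000428), against 28% of heart genes higher and 45.2% changed either way. It was higher at 8 of 8 time points and within each replicate number (0.35, 0.27 and 0.79). With TPM as deposited it was 0.59. With genes detected as a term it was 0.12 (limma adjusted p = 0.756), and that number had a median of 24768.5 in normoxia and 21492.0 after IH. Its ranges, 22988 to 28331 and 20316 to 22793, did not overlap, so that fit cannot separate it from treatment. All 4 endothelial markers were higher too. Their summed level, in TPM as deposited, was 108 to 274 TPM in normoxia and 186 to 327 TPM after IH. The part of either in the result was not tested.

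In the liver the scaled level of Aqp1 ran from 23.3 to 64.4 TPM in normoxia (median 35.0) and from 26.0 to 149.75 TPM after IH (median 54.3). The log2 change was 0.58 (SE 0.12, limma adjusted p = 0.00035), against 10.9% of liver genes higher and 24.2% changed. It was 0.62, 1.14 and -0.03 within replicates 1, 2 and 3. In normoxia the scaled mean was 33.5 ± 4.83 TPM in replicate 1, 29.5 ± 3.36 in replicate 2 and 50.7 ± 7.42 TPM in replicate 3. Without replicate 2 the change was 0.29 (limma adjusted p = 0.209) and without replicate 1 it was 0.56 (0.0607). Without the IH library at 13:30 of replicate 2, which held heart markers at 31.1% of their level in the heart, it was 0.51 (limma adjusted p = 0.000184). That library had a scale factor of 0.5304. In TPM as deposited Aqp1 ran from 22.4 to 82.9 TPM in normoxia and from 26.4 to 79.4 TPM after IH. The change was then 0.45 (limma adjusted p = 0.00938). Of the endothelial list 1 of 4 was higher (Pecam1, 0.53). The summed level of the list, in TPM as deposited, was 13.4 to 34.7 TPM in normoxia and 10.2 to 97.4 TPM after IH. Its part in the result was not tested. Scnn1a in the liver changed by -0.24 (SE 0.13, limma adjusted p = 0.164). Aqp1 did not pass in the muscle (-0.09, SE 0.08, with 10.4% of genes changed), and neither Aqp1 (-0.47, SE 0.36) nor Slc9a3 (-0.14, SE 0.17) did in the cerebellum (15%).

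Below 1 TPM, renal members were traced in liver libraries together with kidney transcripts. The liver mean of Slc12a1 was 0.150 TPM in normoxia and 0.567 TPM after IH, or 0.0547% and 0.214% of its kidney level. Aqp2 was at 0.0532% and 0.203%. The kidney transcript Kap stood at 0.048% and 0.217%, and Umod at 0.05% and 0.221%. By replicate number, Slc12a1 in normoxia had 0.0278, 0.0252 and 0.397 TPM and Kap 2.00, 3.42 and 61.2 TPM, so in both it was replicate 3 that was high. Pearson's r with Kap over the 48 liver libraries was 0.96 for Slc12a1 and 0.95 for Aqp2, points that share libraries and treatment. They lie below the floor for tests and are given as levels.

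In the lung Slc12a3 was listed at 0.107 to 0.429 TPM in normoxia and at 0.443 to 2.62 TPM after IH, so the groups did not overlap. The share of all lung genes without overlap was not counted, so this is not read as particular to Slc12a3. More genes were listed above 0 in the lung after IH (median 24788.5 against 22690.5). Avpr2 had 0.0689 to 0.327 TPM (median 0.135) and 0.108 to 2.10 TPM (median 0.401), and these did overlap. Both means are below the floor for tests. Kap in the same libraries was at 9.77e-05% and 0.000818% of its kidney level, while Slc12a3 was at 0.102% and 0.45% of its own.

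The change after IH was compared between the kidney and each other tissue as an interaction in limma, in which libraries were taken as independent although several tissues may come from 1 mouse. A gene entered when its mean over both tissues reached 1 TPM, so all 9 members entered each time, several of them through the kidney alone. By that entry 7 passed against the lung (61.9% of genes), 5 against the liver (28.5%), 3 against the heart (38.2%) and none against the muscle (18.6%) or the cerebellum (12.5%). The members below 1 TPM in the other tissue are not read. Of those with at least 1 TPM in both tissues, 4 of 4 differed from the lung (63.1% of such genes did), 1 of 2 from the liver (29.8%), 1 of 1 from the heart (40.2%), 0 of 1 from the muscle (19.6%) and 0 of 2 from the cerebellum (12.7%).

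The kidney change exceeded that of the lung by 0.76 for Scnn1b (SE 0.15, limma adjusted p = 7.27e-06), 0.72 for Scnn1g (SE 0.16), 0.60 for Scnn1a (SE 0.21) and 0.56 for Aqp1 (SE 0.14). With TPM as deposited the difference for Scnn1b was 0.42 and still passed, while those for Scnn1g, Scnn1a and Aqp1 were 0.37, 0.26 and 0.21 and did not. Without replicate 1 the same 3 did not pass (0.34, 0.23 and 0.31). With genes detected as a term the difference for Scnn1b was 0.19 and did not pass, and the other 3 turned to -0.23, -0.49 and -0.24. The kidney change of Aqp1 was 0.58 below that of the liver (SE 0.14) and 0.48 below that of the heart (SE 0.13). The liver difference was -0.17 without replicate 2 (limma adjusted p = 0.438), and the heart difference was -0.01 with genes detected as a term (0.981).

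Among the 48 kidney libraries, the members fell into 2 loose groups. Log2 levels were taken after removal of each treatment's mean, and the values describe libraries that share their scaling, with no test. Pearson's r was 0.84 between Scnn1a and Scnn1b, 0.84 between Scnn1b and Scnn1g, 0.79 between Slc12a1 and Slc9a3 and 0.80 between Scnn1a and Aqp1. The vasopressin receptor and its water channel, Avpr2 and Aqp2, had 0.71. Avpr2 had -0.54 with Slc9a3. Slc12a3 was apart from the others, with r between -0.33 and 0.37.

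Aqp2 had an r of 0.74 with other markers of principal cells and 0.75 with those of the thick ascending limb, whereas Slc12a1, itself a gene of that limb, had 0.16 with the latter list. Scnn1b had 0.85 with the proximal tubule list and 0.63 with the principal cell list. A member was thus not always closest to the markers of its own segment.

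The genes most like each member over these libraries, among 9152 genes of at least 5 TPM, were Zmiz2, Atn1 and Hk1 for Scnn1a (r from 0.90 to 0.92), Cog7, Atp6v1b1 and Suox for Scnn1b (0.92), and Pard6b, Abcf2 and Serpina1f for Scnn1g (0.85 to 0.86). Cog7 overlaps Scnn1b on the other strand (Scnn1b lies at chr7:121865038-121918514 in GRCm38), and whether quantification used strand is not given in the sources used here. Those for Slc12a1 (overlapped on the other strand by Gm14002) were Pcsk6, Mfsd4a and Mme (0.87 to 0.91), for Slc12a3 Leng8, Dido1 and Dot1l (0.87 to 0.91), and for Slc9a3 Rbl2, B3galt5 and Kcnj15 (0.90 to 0.91). For Aqp1 they were Cyp2a4, Agfg2 and Aldoc (0.83 to 0.84), and for Aqp2 they included Gal3st1 and Ankrd9 (both 0.83). Avpr2 (chrX:73892102-73895502, overlapped on the other strand by Arhgap4 and L1cam) was most like Abhd8, Dnajb2 and Fkbp4 (0.84 to 0.86).

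**Figure D5:**
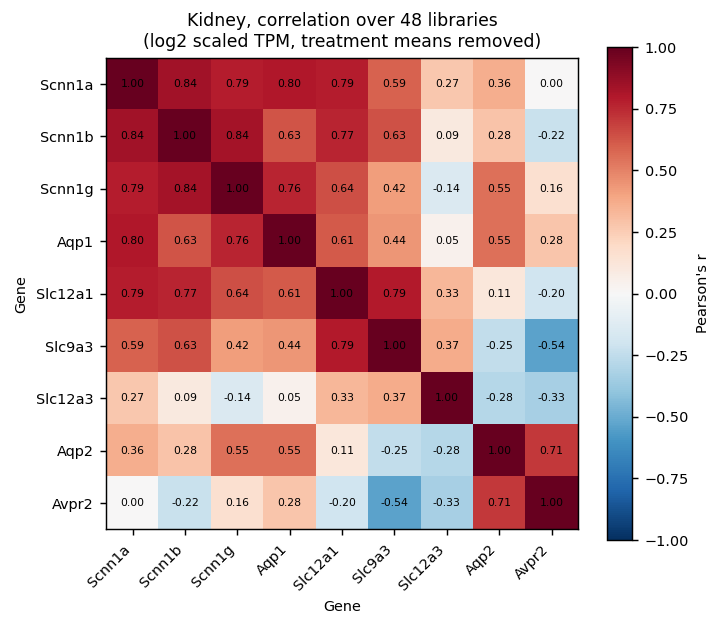
Pearson's r between the 9 genes (both axes) over 48 kidney libraries, from log2 scaled TPM with treatment means removed, red for positive and blue for negative. The Scnn1 genes, Aqp1 and Slc12a1 form a red block with r of at least 0.61, and Aqp2 with Avpr2 a red pair (0.71).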

How the data were processed

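RNA of 6 tissues was sequenced as poly(A), strand-specific libraries. Per the labels and the study's methods, the authors quantified reads with Kallisto against Ensembl transcripts (build mm10, FastQC 0.11.3 for quality) and added transcripts up by gene. Deposited values are TPM. With no read counts, depth is unknown, so DESeq2, which the authors used, was not applied. Libraries were scaled by median of ratios and moved to log2 after adding 0.5 TPM, so fold changes of low genes are understated. Genes reaching a mean of 1 TPM in a tissue were tested with limma 3.58.1 (R 4.3.3), with a trend in the prior variance and treatment as the only term, and Benjamini-Hochberg adjustment over all genes tested. Rhythm was the moderated F test of a 24-h cosine in a fit of both treatments. The study combined rank and periodogram tests, which use the same values, so that combination is an alternative here. Levels between tissues were compared by permutation. Each library is of 1 mouse, libraries of different tissues may share a mouse, and p-values measure the spread between these libraries.

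Python 3.11.15, numpy 2.4.6, pandas 2.3.3 and matplotlib 3.10.9 served for the rest. Methods were tested on simulated data. Positions come from GENCODE (GRCm38) and promoters from RefSeq (GRCm38.p6). The members and lists were chosen with earlier results of these data known. The genes named by rule are the members, other transport genes called with a 1.5-fold change in the kidney or lung, the 8 with the smallest adjusted p for rhythm in the kidney, and the 3 nearest by correlation to each member. Other transport genes and markers named for the kidney and liver were chosen after their values were seen. A few genes that this rule or the lists name are not reported here. Alternatives were other pseudocounts, filters and scaling, terms for time point, replicate number and genes detected, other rhythm tests, and leaving out each replicate number. Leaving out the library of lowest correlation was added after seeing the data. No library repeated another's values.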

Additional observations from a re-analysis of the deposited data

Results flagged for a closer look

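6 differences in the change after IH, kidney minus the other tissue on the log2 scale, passed the interaction test of limma (adjusted p of 0.05) for members with at least 1 TPM in both tissues. Against the lung they were 0.76 for Scnn1b, 0.72 for Scnn1g, 0.60 for Scnn1a and 0.56 for Aqp1. For Aqp1 the difference was -0.58 against the liver and -0.48 against the heart. Each was lost or turned under at least 1 alternative.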

How the results depend on the processing

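The kidney count of members past both the adjusted p and 1.5-fold stayed at 0 under every alternative run, although Slc9a3, Scnn1a, Scnn1b and Aqp2 passed the adjusted p under some. Of 298 recomputed counts 265 were within 1.5 times the main value. In the lung the count of 2 became 0 with TPM as deposited, 1 (Scnn1a, as higher) with genes detected as a term and 1 without the least correlated library, and ran from 0 to 4 when a replicate number was left out. It became 1 in the heart with TPM as deposited, and ran from 0 to 1 in the liver and the cerebellum without a replicate number. The number of all genes called moved too when a replicate number was left out. It ran from 1509 to 3441 in the lung, 48 to 1491 in the liver and 31 to 1973 in the cerebellum. In the liver the member count became 2 with no filter. Both have a liver mean below 1 TPM, as Aqp1 (0.58) and Scnn1a (-0.24) did not reach 1.5-fold there. With JTK and Lomb-Scargle combined, and with each treatment fitted alone, 3 members were rhythmic in the normoxic kidney in place of 1, and 1 in place of 0 in the normoxic lung and after IH in the muscle and the heart. Without a replicate number these counts ran from 0 to 1 in the normoxic kidney, 1 to 2 in the kidney after IH, and 0 to 1 in the liver after IH and the normoxic heart. The shares of all genes called under these rhythm settings are not given here, so none of these counts is read as particular to the members.

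With genes detected as a term, the members that differed from the kidney, counted with those below 1 TPM in the other tissue, became 3 for lung, 2 for muscle, 0 for heart and 1 for cerebellum, and 1 for heart with TPM as deposited. Leaving out a replicate number gave 3 to 8 in the lung, 1 to 5 in the liver, 2 in the heart, and 0 to 1 in the muscle and the cerebellum. That term also reversed the lung changes of Scnn1a (0.79), Scnn1b (0.11), Scnn1g (0.39), Aqp1 (0.34), Aqp5 (0.043) and Slc9a3r1 (0.069), the kidney-lung differences of Aqp1 (-0.24), Avpr2 (0.35), Scnn1a (-0.49) and Scnn1g (-0.23), and the kidney-heart difference of Slc12a3 (-0.11). In the lung and the heart the number of genes detected went largely with treatment. The cause of these reversals was not tested.

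The labels do not say that a replicate number marks a shared batch. Libraries with the same number at a time point did not deviate together in the kidney (mean r -0.03, over 0.1 in 6 of 24 pairs) or the lung (-0.11, 5 of 24), and did so in part in the liver (0.21, 16 of 24). With the replicate block the lung count was 2, the kidney count 0, the rhythmic members of the kidney 1 in each treatment, the kidney-lung differences 8 and the tissue pairs that differed 30 of 45. Slc9a3 in the kidney passed with it (adjusted p = 0.0439). A change of sign below the threshold on both sides was counted as no change, in 49 cases. Without counts, depth sets an unknown limit on the members below 1 TPM.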
